A study of Sus scrofa with 9 samples.

Results

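Genes of the endothelium and of vessel growth, 10 in all, were followed through the crown stages of a pig molar: PECAM1, CDH5, KDR, FLT1, TEK, TIE1, ENG, VWF, EMCN and VEGFA. They were chosen by name, with earlier results of these data known. The deposited table holds 34580 rows, and 8 of the 10 symbols have a row of their own: VEGFA, KDR, FLT1, TEK, TIE1, ENG, PECAM1 and VWF. EMCN was found by its RefSeq gene ID in the row LOC100628129 and is described but not counted among the 8. CDH5 was not analysed here. All 8 genes passed the filter on low values, which asked for an FPKM (sequenced fragments scaled to the length of the transcript and to the total of the library) of at least 1 in at least 2 libraries.

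The tissue was the germ of the mandibular deciduous molar Dm3 of untreated miniature pig fetuses, taken at embryonic day 40 (E40, cap stage), day 50 (E50, early bell stage) and day 60 (E60, late bell stage). Each stage has 3 libraries of total RNA. The germ is a mixture of enamel organ, dental papilla and dental sac with the vessels they hold, so that fewer cells of a type and less RNA per cell cannot be told apart. The labels do not say which fetus or litter a library came from, and p-values therefore measure the spread between these libraries only, which may in part be technical.

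The libraries fell into 2 sets. The FPKM values had been divided by 14376672 to 16692361 reads in the E50 libraries and E60 library 1 (the deep set, 4 libraries), and by 938999 to 1761189 reads in the E40 libraries and E60 libraries 2 and 3 (the shallow set, 5 libraries). Pearson r of log2(FPKM + 0.1) over the genes tested was 0.959 to 0.983 within the deep set, 0.743 to 0.838 within the shallow set and 0.301 to 0.609 between them. All E40 libraries are shallow and all E50 libraries are deep, and for the step from E40 to E50 stage and set cannot be told apart. Each comparison is given over all 9 libraries, over the 8 without E60 library 1, and within sets, in a fit with the set as a term. Within sets, E60 library 1 stands against the E50 libraries, and E60 libraries 2 and 3 stand against the E40 libraries. No set holds both E40 and E50, and for that step the fit joins these contrasts through E60. It then rests on E60 library 1 alone for the deep side of E60 and takes the set difference as equal at all stages. The median gene also shifted: by 0.55 (log2) from E40 to E50, by -0.64 from E50 to E60 and by -0.22 from E40 to E60 over the 9 libraries, and by -0.14, 0.12 and -0.12 after median-ratio scaling. Changes of single genes are read against these shifts.

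Blood vessels grow toward VEGFA, a ligand made by many tissues and raised by low oxygen. Endothelial cells receive it through KDR, the main signalling receptor, and through FLT1, which binds VEGFA tightly and signals weakly. TEK (also called TIE2) binds the angiopoietins and steadies the vessel wall, and TIE1 is its partner without a well established ligand of its own. ENG is a coreceptor for ligands of the TGF-beta family. PECAM1 and CDH5 join endothelial cells to each other, EMCN is a sialomucin of their surface and VWF is the clotting protein they store. In the tooth germ, capillaries gather around and within the dental papilla and later reach the outer enamel epithelium.

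The tissue labels were checked against markers. The keratin KRT5 of the dental epithelium was between 858 and 3660 FPKM, and the intermediate filament VIM of the mesenchyme between 560 and 2753 FPKM. AMBN, an enamel matrix protein, was between 2.77 and 6.48 FPKM at E40 and E50 and between 2181 and 10410 FPKM in all E60 libraries, E60 library 1 included.

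VEGFA was the highest of the 8 genes at E40, and at E50 it overlapped with PECAM1 at the top. Its FPKM was 27.4, 32.7 and 22.1 at E40, 29.5, 26.2 and 26.9 at E50, and 22.2, 6.22 and 12.7 at E60. The E60 values lay below all E50 values, while E60 library 1 lay just inside the E40 range. In the shallow set, E60 libraries 2 and 3 held 5 and 13 reads of VEGFA, against 15, 20 and 17 in the E40 libraries. The pooled rate in the shallow E60 libraries was 0.365 times that at E40, with a 95% exact interval of 0.201 to 0.635. In the deep set, E60 library 1 held 209 reads against 225 to 255 at E50, a ratio of 0.809 (0.69 to 0.945). These intervals cover counting error only and compare libraries, not stages. VEGFA was thus lower in the E60 libraries of both sets, by a larger factor in the shallow one. The VEGFA row is 582 bases long by its FPKM and reads, which makes its read numbers small for its level.

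KDR was 8.15, 9.64 and 12.1 FPKM at E40, 21.7, 22.8 and 20.3 at E50, and 23.9, 4.7 and 9.07 at E60. All E50 values and that of E60 library 1 lay above all E40 values, and E60 libraries 2 and 3 lay below the E50 values. The row gathered 39 to 96 reads in each shallow library and 1751 to 2317 in each deep one. Between libraries of like depth, KDR in E60 library 1 stood 1.1 times as high as at E50 (1.05 to 1.16), and in the pooled E60 libraries 2 and 3 it stood 0.702 times as high as at E40 (0.56 to 0.877). The direction thus differed between the sets, and in the shallow set E60 library 3 lay within the E40 range.

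FLT1 was low throughout. It was 1.59, 1.7 and 1.35 FPKM at E40, 2.25, 1.83 and 1.44 at E50, and 1.91, 0.649 and 1.02 at E60. E40 and E50 overlapped, and E60 libraries 2 and 3, with 6 and 12 reads, were the lowest of all.

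TEK was 1.01, 0.898 and 0.714 FPKM at E40, where each library held 4 reads. It was 3.37, 3.58 and 3.3 FPKM at E50, with 201 to 253 reads. At E60 it was 4.89 FPKM in library 1 and 1.03 and 1.21 FPKM in libraries 2 and 3. Every E60 value lay above every E40 value, by little in the shallow libraries, and E60 library 1 lay above every E50 value. The pooled shallow ratio of E60 to E40 was 1.32 with an interval of 0.576 to 3.09, so that no difference of TEK was detectable at that depth, and the deep ratio of E60 to E50 was 1.43 (1.25 to 1.63).

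TIE1 went the other way on the FPKM scale but rests on very few reads. It was 3.7, 3.31 and 3.94 FPKM at E40, 0.83, 0.521 and 1.09 at E50, and 0.646, 3.78 and 0 at E60. These stand for 2, 2 and 3 reads at E40, 7, 5 and 9 at E50, and 6, 3 and 0 at E60, in a row of only 575 bases. Every shallow value of TIE1 is thus at or under the floor of 3 reads, and by that floor the 0 allows up to 2.96 FPKM (3.64 FPKM by the 95% exact interval). Pooled, TIE1 stood at 0.217 times its E40 rate at E50 (0.0891 to 0.606), from 7 reads at E40 and 21 at E50.

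ENG was 3.52, 0.943 and 2.5 FPKM at E40, 5.01, 2.97 and 3.63 at E50, and 3.85, 2.15 and 2.63 at E60. All 3 stages overlapped. PECAM1, in contrast, separated E40 from both later stages. It was 8.7, 9.7 and 8.15 FPKM at E40, 26.6, 28.6 and 27.3 at E50, and 32.3, 10.6 and 18 at E60. Within the shallow set, the 50 and 109 reads of E60 libraries 2 and 3 stood against 28, 35 and 37 at E40, a pooled ratio of 1.68 (1.3 to 2.18). Within the deep set, E60 library 1 stood 1.17 times as high as E50 (1.11 to 1.24). The PECAM1 values of the E60 libraries were therefore above those of the earlier stage of their set in both sets. These intervals too cover counting error only and compare libraries, not stages. The interval of E60 library 2 alone, 7.83 to 13.9 FPKM, holds all E40 values.

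VWF was 1.17, 1.46 and 0.662 FPKM at E40, 2.14, 1.27 and 1.33 at E50, and 2.06, 0.317 and 2.36 at E60, and its stages overlapped. EMCN gathered 2, 1 and 0 reads at E40, 61, 69 and 55 at E50, and 77, 1 and 2 at E60. In the shallow libraries EMCN was at or under the floor, and the pooled rate at E50 was 4.47 times that at E40 with a wide interval of 1.51 to 21.9, since E40 holds 3 reads in all.

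**Figure D1:**
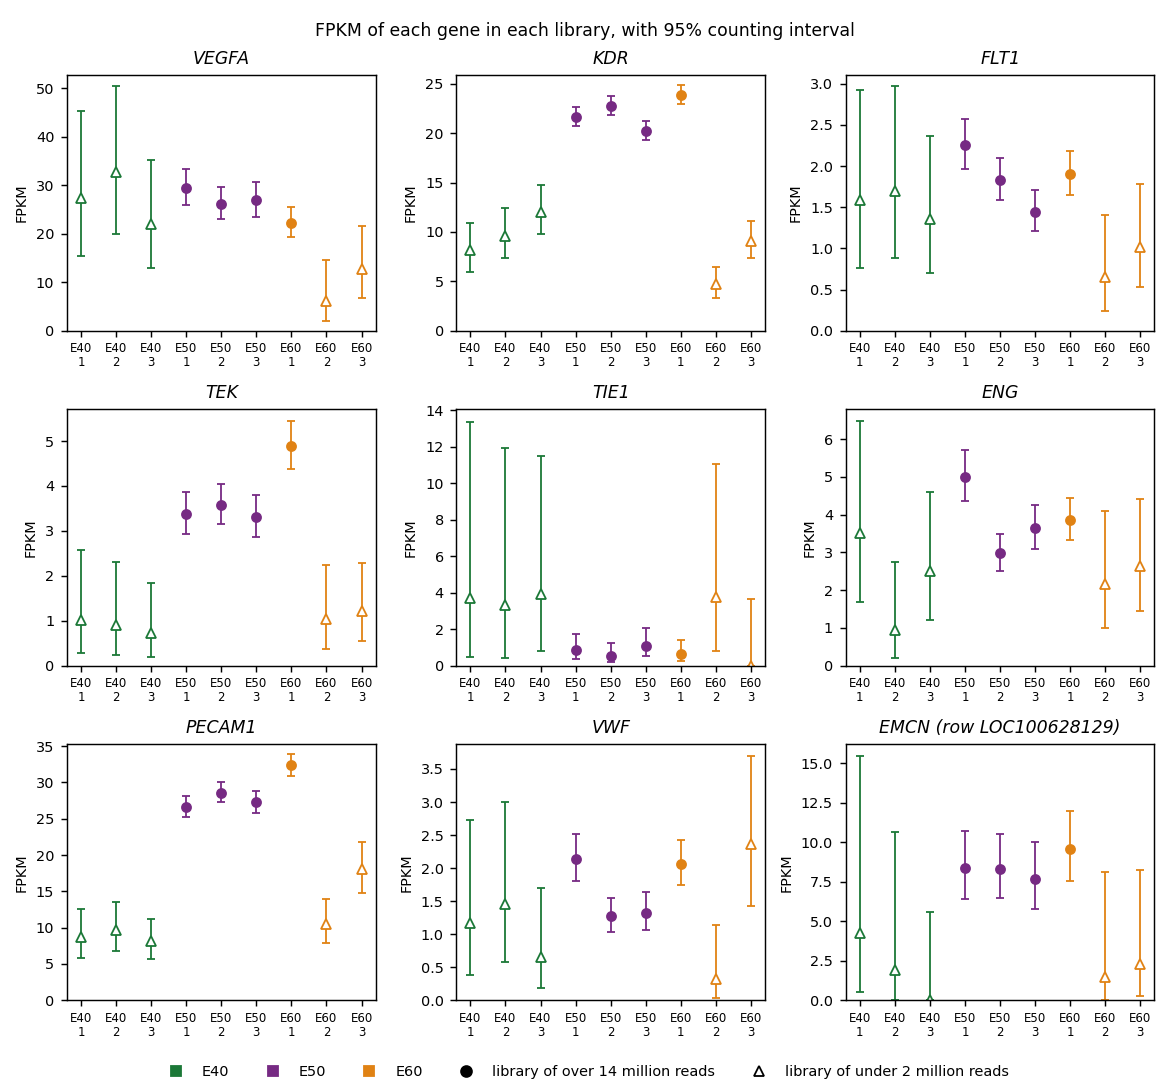
FPKM of each gene (y axis, linear from 0) in each of the 9 libraries (x axis, stage over library number), with 95% exact counting intervals as bars. Filled circles are the 4 deep libraries and open triangles the 5 shallow ones. PECAM1 was 8.15 to 9.7 FPKM at E40 and 10.6 or more in all later libraries, and the shallow values of TIE1 and EMCN rest on 3 reads or fewer.

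Compared per length, the order of the genes changed between E40 and E50. At E40, VEGFA was above KDR without overlap, KDR and PECAM1 overlapped, both lay above the others, and TIE1, ENG, FLT1, VWF and TEK overlapped each with the next. At E50, VEGFA and PECAM1 overlapped at 26.2 to 29.5 FPKM, KDR followed at 20.3 to 22.8 without overlap, then ENG and TEK, then FLT1 and VWF, and TIE1 was the lowest. At E60 only KDR and ENG, neighbours in the order of means, did not overlap.

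The reads of the 7 genes other than VEGFA were summed as a rough measure of endothelial transcripts. The sum, scaled to a common library total as counts per 1000000 reads (CPM), was 112, 118 and 125 at E40, 276, 278 and 257 at E50, and 309, 83.3 and 147 at E60. The deep libraries lay between 257 and 309 and the shallow ones between 83.3 and 147, whatever their stage. KDR and PECAM1 make up most of these reads.

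**Figure D2:**
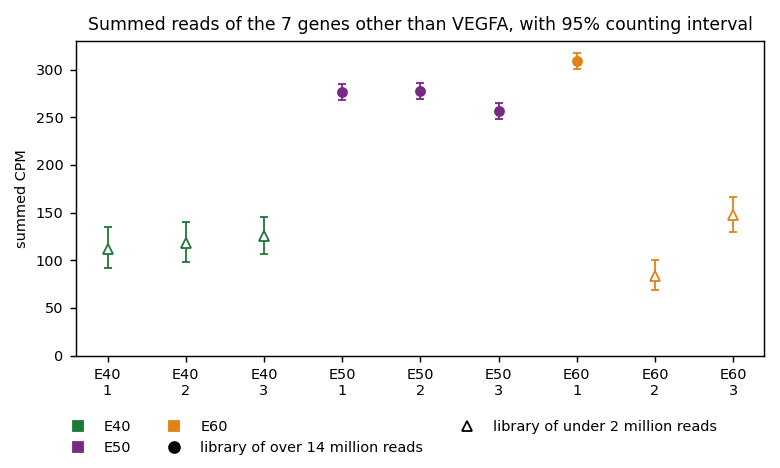
Summed CPM of KDR, FLT1, TEK, TIE1, ENG, PECAM1 and VWF (y axis, linear from 0) in each library (x axis), with 95% exact counting intervals. The 4 deep libraries (filled circles) sit at 257 to 309 and the 5 shallow ones (open triangles) at 83.3 to 147.

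From E40 to E50, 2 of the 8 genes were called higher over the 9 libraries, TEK and PECAM1, and none was called lower. The limits for a call were 0.05 on the adjusted p and 1 on the size of the log2 fold change. Of all 19618 genes tested, 38.6% were called in this comparison and 16.8% were called higher, a share that 2 of 8 exceeds by less than 1 gene. PECAM1 rose by 1.63 ± 0.41 (log2 fold change ± SE, adjusted p = 0.0184, limma with Benjamini-Hochberg adjustment) and TEK by 1.86 ± 0.64 (adjusted p = 0.045). KDR had a log2 fold change of 1.13 ± 0.54 (adjusted p = 0.117), ENG of 0.86, VWF of 0.51, FLT1 of 0.22, VEGFA of 0.03 and TIE1 of -2.08 ± 1.13 (adjusted p = 0.158). The median of the 8 genes was 0.69, beside 0.55 for all genes. Over the 8 libraries, where 54.6% of genes were called, KDR joined TEK and PECAM1 with an adjusted p of 0.00929.

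These calls did not hold in every setting. With the library set as a term, where 0.255% of genes were called, no gene of the 8 was called, and 1 had an unadjusted p under 0.05. PECAM1 then had a log2 fold change of 0.41 ± 0.43 and TEK of -0.17 ± 0.57. After median-ratio scaling, with 36.5% of all genes called, none of the 8 was called, 3 had an unadjusted p under 0.05, and PECAM1 had 0.97 ± 0.20 (adjusted p = 0.0209), just under the fold limit. limma-voom on the recovered reads, which called 32.7% of all genes, called 2, PECAM1 higher by 1.24 and TIE1 lower by 2.80 on the log2 scale. Leaving out E40 library 1 or 2 or any 1 of the E50 libraries left no call, leaving out E40 library 3 left PECAM1 alone with an adjusted p of 0.0481, and leaving out E60 library 3 called PECAM1 and TIE1. Without E60 library 2 the calls were KDR, TEK and PECAM1.

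From E50 to E60, none of the 8 genes was called by limma over the 9 libraries, in a comparison where 0.0714% of all genes were called. VEGFA alone had an unadjusted p under 0.05, with a log2 fold change of -1.18 ± 0.45 (adjusted p = 0.164), and limma-voom, with 1.03% of all genes called, called none and had no unadjusted p under 0.05. Without E60 library 1, where 59.1% of genes were called and 39.1% were called lower, VEGFA fell by 1.62 ± 0.33 (adjusted p = 0.003), KDR by 1.71 ± 0.32 (adjusted p = 0.00211) and TEK by 1.53 ± 0.38 (adjusted p = 0.00767), all on the log2 scale. The median of all genes fell by 0.94 on that scale over the same libraries, and that of the 8 genes by 1.03. Within sets, with 0.107% of all genes called, none of the 8 was called or had an unadjusted p under 0.05, and the log2 fold changes were 0.51 ± 0.45 for TEK, 0.23 ± 0.34 for PECAM1, 0.15 ± 0.41 for KDR and -0.31 ± 0.41 for VEGFA.

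From E40 to E60, none was called by limma over the 9 libraries, where 1.8% of all genes were, and 2 had an unadjusted p under 0.05: VEGFA with a log2 fold change of -1.16 ± 0.45 (adjusted p = 0.244) and PECAM1 with 1.05 ± 0.41 (adjusted p = 0.247). Over the 8 libraries this comparison lies within the shallow set, and 6.06% of all genes were called. VEGFA fell by 1.59 ± 0.33 on the log2 scale (adjusted p = 0.0301), against a fall of the median gene by 0.47, and PECAM1 had 0.64 ± 0.27 (adjusted p = 0.188). These fits take part of their spread from the deep libraries. With the 5 shallow libraries alone in the fit, where 1.3% of all genes were called, VEGFA had the same log2 fold change, -1.59 ± 0.40, and was not called (adjusted p = 0.115). With the set as a term 5.89% of genes were called, VEGFA among them (adjusted p = 0.03). Without E60 library 2, PECAM1 at 1.44 (adjusted p = 0.0345) and TIE1 at -3.78 (adjusted p = 0.0465) were called instead. The size of this TIE1 change depends on the pseudocount, since E60 library 3 held 0 reads of TIE1 and E60 library 1 held 6.

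Relative to the other genes of a library, PECAM1 was higher and VEGFA lower at E60. Divided by the median-ratio size factors, PECAM1 was 11, 11 and 7.88 at E40, 18.3, 21 and 18.8 at E50, and 24.7, 20.6 and 21.2 at E60, in scaled FPKM. The E60 values then lay together and above all E40 values. Scaled VEGFA was 34.6, 36.9 and 21.3 at E40, 20.2, 19.3 and 18.5 at E50, and 17, 12.1 and 14.9 at E60. The 3 stages of VEGFA did not overlap on this scale, in descending order. On scaled FPKM over the 9 libraries, where 3.65% of genes were called from E40 to E60, PECAM1 rose by 1.16 ± 0.20 (adjusted p = 0.0195) and VEGFA had -1.04 ± 0.25 (adjusted p = 0.0622). On scaled FPKM over the 8 libraries both were called, with 4.87% of all genes. limma-voom called PECAM1 over 9 libraries, over 8 and over the 5 shallow ones, with a log2 fold change of 1.31, 1.15 and 1.13. It called 14.5%, 3.9% and 4.43% of all genes in these fits, and not VEGFA, whose adjusted p was 0.154, 0.356 and 0.297. By limma on the unscaled FPKM of the 5 shallow libraries alone, PECAM1 had 0.64 ± 0.36 (log2, adjusted p = 0.381) and was not called.

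**Figure D3:**
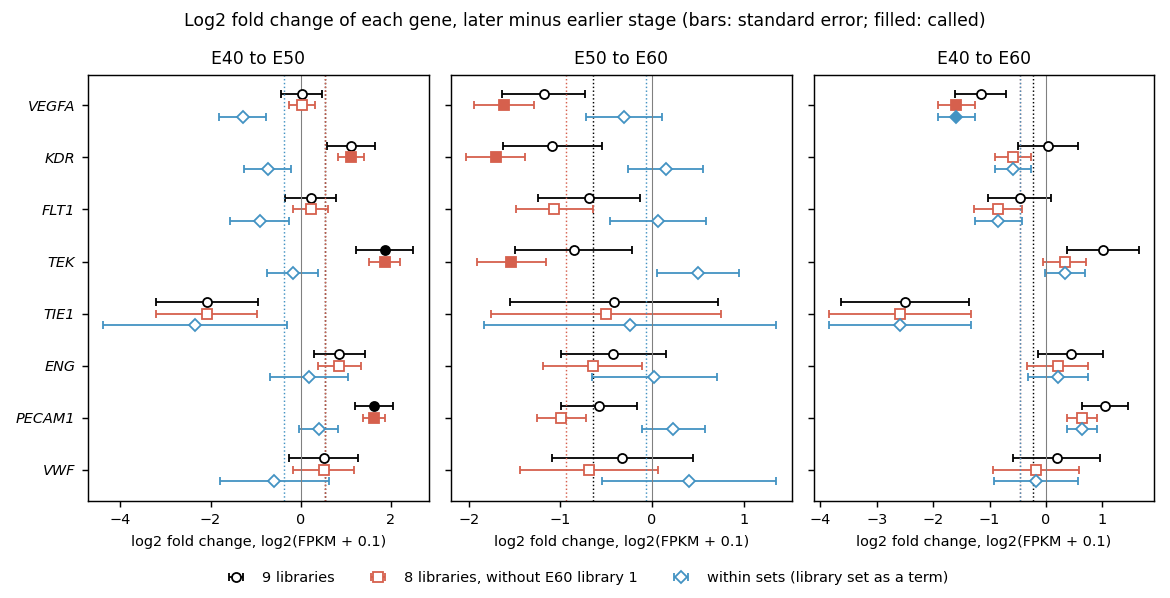
Log2 fold change of each gene (x axis, on log2(FPKM + 0.1), later minus earlier stage) for the 3 comparisons, with standard errors as bars. Circles are the fit of 9 libraries, squares that of 8 libraries and diamonds that within sets, filled symbols are called, and dotted lines mark the median of all genes in each fit. From E50 to E60 the squares lie below the diamonds for all 8 genes, with KDR at -1.71 against 0.15.

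Ratios within a library do not move with its scaling, and they were computed for the pairs of receptors and ligand. FLT1 stood to KDR as 0.195, 0.177 and 0.112 at E40, as 0.104, 0.0804 and 0.0713 at E50, and as 0.0798, 0.138 and 0.112 at E60, in FPKM. The E40 ratios lay above the E50 ratios, and E60 overlapped with both. By set, the deep libraries lay at 0.0713 to 0.104 and the shallow ones at 0.112 to 0.195, E60 included. The step of this ratio from E40 to E50 thus cannot be told apart from a difference between the sets. The log2 difference of FLT1 to KDR, computed with 0.1 added, was -2.60 ± 0.41 at E40, -3.50 ± 0.26 at E50 and -3.10 ± 0.45 at E60 (SD, n = 3). Two-sided exact permutation tests gave p = 0.1 from E40 to E50, p = 0.3 from E50 to E60 and p = 0.3 from E40 to E60 (adjusted p = 0.3 for each of the 3 tests), where 0.1 is the smallest p that 3 against 3 libraries allow.

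The ratio of VEGFA to KDR was 3.37, 3.39 and 1.83 at E40, 1.36, 1.15 and 1.33 at E50, and 0.932, 1.32 and 1.4 at E60. All E40 libraries were above all later ones. In the shallow libraries the counting intervals were wide, from 1.02 to 3.08 for E40 library 3 and from 0.719 to 2.51 for E60 library 3. The ratio of PECAM1 to KDR was 1.07, 1.01 and 0.676 at E40, 1.23, 1.25 and 1.35 at E50, and 1.35, 2.25 and 1.99 at E60. Here every E60 library exceeded every E50 library and every E50 library exceeded every E40 library, E60 library 1 by the least. Its ratio of 1.354 stood against 1.347 in E50 library 3, well within counting error. The 2 shallow E60 libraries had intervals of 1.45 to 3.51 and 1.5 to 2.65, and the highest E40 interval reached 1.74. The last 2 ratios were given no test.

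**Figure D4:**
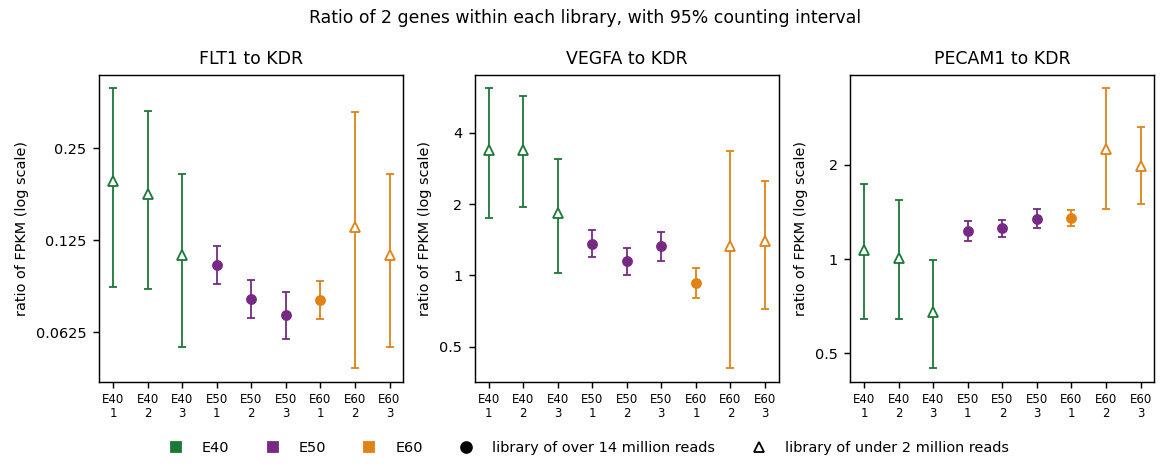
Ratio of FPKM within each library (y axis, log scale) for FLT1 to KDR, VEGFA to KDR and PECAM1 to KDR, with 95% exact counting intervals, filled circles for deep and open triangles for shallow libraries. VEGFA to KDR was 1.83 to 3.39 at E40 and 0.932 to 1.4 later, and PECAM1 to KDR was 0.676 to 1.07 at E40 and 1.23 to 2.25 later.

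Other genes around the endothelium were counted by list. From E40 to E50 the counts of calls over the 9 libraries are to be read against the 38.6% of all genes that were called, 16.8% higher and 21.8% lower. With the set as a term no gene of the lists below was called in this comparison. Without E50 library 2 or 3 none was called either, and without E40 library 1 ANGPT2 alone was. The share of all genes called moved as well, to 54.6% without E60 library 1. For the other libraries left out it is not given. Calls over the 8 libraries from E50 to E60 are to be read against 59.1% of all genes called, 39.1% lower. Those from E40 to E60 stand beside 6.06%.

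Of the other VEGF ligands and receptors, 7 are in the table and 6 were tested. Over the 9 libraries 1 was called higher from E40 to E50 (0 to 2 on leaving out 1 library) and none in the later comparisons. The call was VEGFC, a ligand of lymphatic growth, which was listed at 0 in 2 of the E40 libraries and at 1.41 to 1.78 FPKM at E50. FIGF, the table's symbol for VEGFD, had the widest swing. It was 11.2, 14.1 and 18.5 FPKM at E40, 27.3, 31.3 and 34.3 at E50, and 5.59, 1.04 and 2.45 at E60. All 3 stages were apart, and E60 was lowest in both sets. FIGF had -3.60 ± 0.55 (log2, adjusted p = 0.0755) from E50 to E60 over 9 libraries and fell by 4.18 ± 0.38 (adjusted p = 5.04e-05) over 8. From E40 to E60 it had -2.50 ± 0.55 (adjusted p = 0.0596) over 9 and fell by 3.08 ± 0.38 (adjusted p = 0.00442) over 8. Scaled FPKM and limma-voom on 9 libraries called it in both comparisons, while the within-set fit called it from E40 to E60 (adjusted p = 0.00464), as did the fit of the 5 shallow libraries alone (adjusted p = 0.0341), and not from E50 to E60 (adjusted p = 0.236). In counting terms the E60 rate was 0.122 times that at E40 in the shallow set (0.0609 to 0.222) and 0.181 times that at E50 in the deep set (0.155 to 0.21). VEGFB lay between 7.45 and 9.15 FPKM at E40, 11.9 and 16.9 at E50, and 2.53 and 9.44 at E60. NRP1, a coreceptor of KDR, lay between 6.61 and 10.1, 14.4 and 18.3, and 7.09 and 23.3 FPKM.

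Among the ligands and partners of TEK, 5 were tested, and from E40 to E50 1 was called lower over the 9 libraries (0 to 2 calls on leaving out 1 library), ANGPT2. ANGPT2 is made by endothelial cells themselves and mostly opposes ANGPT1 at TEK. It was 32.9, 30.6 and 22.5 FPKM at E40, 5.48, 5.25 and 5.59 at E50, and 8.87, 13.6 and 10 at E60. The stages did not overlap. It fell by 2.36 ± 0.33 on the log2 scale from E40 to E50 (adjusted p = 0.00916), opposite to the median gene. This call also held over 8 libraries and with scaled FPKM (a fall by 3.01), not with the set as a term (-1.97 ± 0.42, adjusted p = 0.187) and not without E50 library 2 (adjusted p = 0.0528) or 3 (adjusted p = 0.0541). Within the shallow set, E60 stood at 0.413 times E40 (0.327 to 0.52). From E40 to E60 it had -1.40 ± 0.33 (adjusted p = 0.0773) over 9 libraries and fell by 1.27 ± 0.26 (adjusted p = 0.0305) over 8, scaling the 8 libraries left -0.84 (adjusted p = 0.263), and the 5 shallow libraries alone gave -1.27 ± 0.33 (adjusted p = 0.124). Without E60 library 2 it fell by 1.57 (adjusted p = 0.0205). From E50 to E60 the direction turned. ANGPT2 had 0.96 ± 0.33 (adjusted p = 0.164) over 9 libraries and 0.69 ± 0.33 (adjusted p = 1) within sets, and it rose by 1.09 ± 0.26 (adjusted p = 0.0071) over 8 libraries and by 2.15 ± 0.37 (adjusted p = 0.00187) on scaled FPKM of these, where the median gene fell by 0.94 on the unscaled values. In the deep set E60 library 1 stood at 1.63 times E50 (1.44 to 1.84). TEK itself stood higher and ANGPT2 lower at E50 than at E40. ANGPT1, made by cells around the vessel, was 4.1, 2.74 and 0 FPKM at E40 and 6.56 to 9.16 at E50, and PTPRB, the phosphatase that acts on TEK, was 1.11 to 2.74 FPKM at E40, 4.1 to 4.59 at E50 and 2.82 to 8.13 at E60. Neither was called over the 9 libraries.

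**Figure D5:**
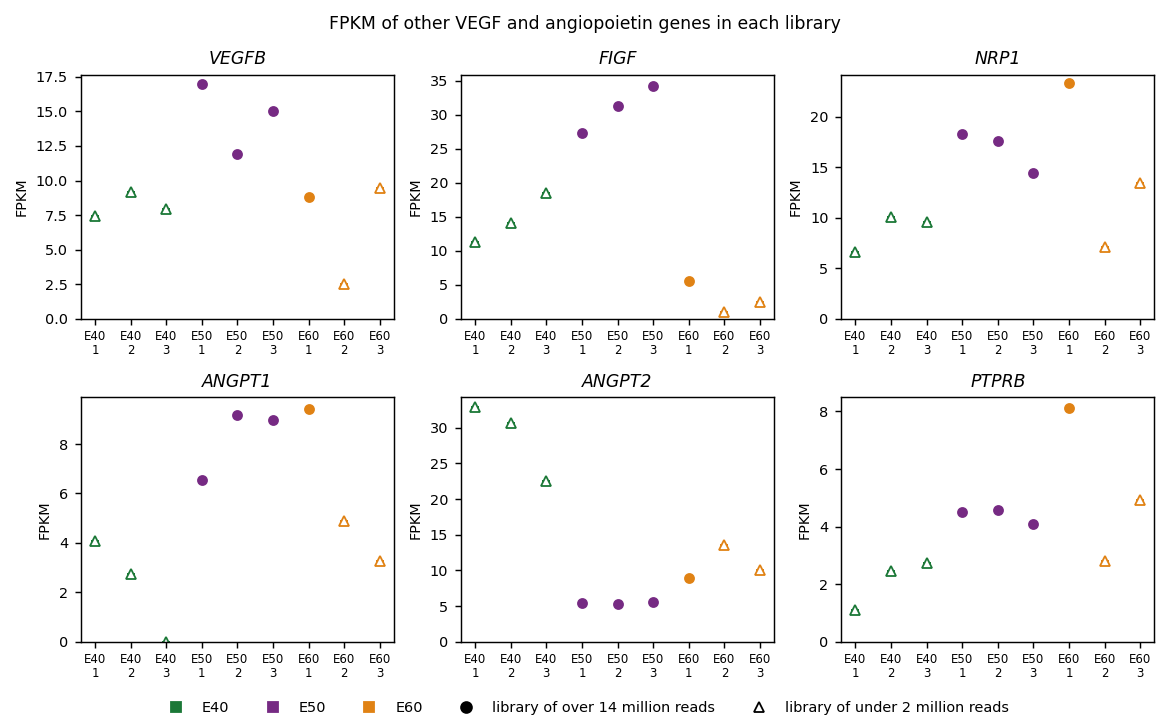
FPKM (y axis, linear from 0) of VEGFB, FIGF, NRP1, ANGPT1, ANGPT2 and PTPRB in each library (x axis), filled circles for deep and open triangles for shallow libraries. FIGF was 27.3 to 34.3 at E50 and 5.59 or less at E60, and ANGPT2 was 22.5 or more at E40 and 13.6 or less afterwards.

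Of the other endothelial identity genes, 16 are in the table and 14 were tested. From E40 to E50 3 were called higher and 2 lower over the 9 libraries, with a median log2 fold change of 1.36 beside 0.55 for all genes. These 5 of 14 are not above the share of all genes called, and the count was 0 to 9 on leaving out 1 library, with 9 without E60 library 1 or 2. RAMP2, the partner of CALCRL in the adrenomedullin receptor, was 7.1 to 14.1 FPKM at E40, 42.1 to 51 at E50, and 45.1, 7.78 and 27.5 at E60. ESAM and MYCT1 were listed at 0 in 2 E40 libraries each and lay at 5.37 to 6.41 and at 3.57 to 4.54 FPKM at E50. RASIP1, a Rap effector of the vascular lumen, fell from 32 to 40.8 FPKM at E40 to 3.3 to 5.87 at E50, and was 4.33, 25.4 and 24.8 at E60, thus near the E50 values in the deep library. CALCRL, with 31.4 to 47.6 FPKM in the deep libraries and 1.71 to 8.78 in the shallow ones, was not called. No gene of this list was called in the later comparisons over 9 libraries or within sets.

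The endothelial transcription factors gave 1 higher and 2 lower calls of 11 tested from E40 to E50, a smaller share than that of all genes. All 3 calls were lost on leaving out any 1 of the E40 or E50 libraries. KLF2, a factor induced by flow, was at 0 to 1.51 FPKM at E40 and at 4.38 to 5.09 at E50. LYL1 was 2.66 to 6.32 FPKM at E40 and 0.774 to 1.12 at E50. ERG, which drives endothelial genes, was 2.79 to 4.48 FPKM at E40 and 3.54 to 4.07 at E50, and LMO2 was 5.44 to 9.22 and 9.24 to 11.9. Of the arterial, venous and lymphatic genes 9 were tested, and from E40 to E50 PDPN was called higher and NOTCH4 lower (0 to 3 calls on leaving out 1 library). The arterial EFNB2 lay at 10.6 to 22.6 FPKM at E40, 36.4 to 39.2 at E50 and 5.06 to 21.4 at E60, and its venous receptor EPHB4 at 16.5 to 21.2, 27.4 to 37.3 and 4.63 to 19.2. Over the 8 libraries EFNB2 and EPHB4 were both called lower from E50 to E60. In that fit 4 of the 9 genes were called lower and 1 higher, near the 39.1% of all genes called lower. Neither was called over 9 libraries or within sets.

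Around the vessel, 11 genes of pericytes and smooth muscle were tested, and from E40 to E50 4 were called higher and 2 lower. The count of 6, beside 38.6% of all genes called, ranged from 0 to 7 on leaving out 1 library. It was 2 without E40 library 2, 3 without E50 library 1 and 7 without E60 library 1 or 2. RGS5, a pericyte gene, was 1.48 to 2.32 FPKM at E40, 16.5 to 20.7 at E50, and 45.4, 2.48 and 5.82 at E60. As with PECAM1, its E60 values lay above the E40 values in the shallow set and above the E50 values in the deep set. The other genes named from this list did not share this. With the 5 shallow libraries alone, the log2 fold change from E40 to E60 was 0.95 for RGS5 (not called). It was -0.42 for TAGLN, -0.69 for ACTA2, -0.27 for MCAM and -2.90 for DES. Over the 8 libraries the median of the 11 genes was -0.36, beside -0.47 for all genes. MCAM fell from 59.9 to 80.5 FPKM at E40 to 8.48 to 10.5 at E50, and was 8.77, 67 and 49.8 at E60. DES, the muscle intermediate filament, fell from 11.9 to 20.2 FPKM at E40 to 2.22 to 3.5 at E50 and was 1.61 to 2.29 at E60. DES was the only gene of this list called over 9 libraries from E40 to E60.

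Of 15 genes of the hypoxia response, 3 were called higher from E40 to E50 over the 9 libraries, among them PDK1 and VHL, a share near the 16.8% of all genes called higher. The count was 2 without E40 library 3 or E60 library 3, 6 without E60 library 1 or 2, and 0 without any 1 of the others. The kinase PDK1 was 13.5 to 16.8 FPKM at E40, 87 to 122 at E50, and 144, 13.9 and 21.8 at E60. The ubiquitin ligase subunit VHL was 4.49 to 6.92 FPKM at E40 and 19.3 to 25 at E50. The glucose transporter SLC2A1 was 91.2 to 95.4 FPKM at E40, 57.3 to 60.3 at E50 and 31.5 to 63.7 at E60. Over the 8 libraries SLC2A1 was called lower from E40 to E60, and it was not called with the 5 shallow libraries alone (limma, adjusted p = 0.0964). It was the only 1 of the 15 genes called there, where 6.06% of all genes were called. The median log2 fold change of the 15 was -0.12, beside -0.47 for all genes, and the list as a whole did not share the fall of VEGFA. None of the 6 angiogenesis inhibitors tested was called over the 9 libraries in any comparison. Over the 8 libraries THBS1, an inhibitory matrix protein, was called lower from E50 to E60 and from E40 to E60, the latter not with the 5 shallow libraries alone (adjusted p = 0.0564). THBS1 was the only 1 of the 6 called in each. Of all genes, 39.1% were called lower from E50 to E60 and 6.06% were called from E40 to E60. Its FPKM was 18.2 to 29.6 at E40, 27.6 to 31.3 at E50, and 16.2, 4.12 and 7.05 at E60.

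The summed FPKM of platelet and of red blood cell markers differed between the library sets too, in opposite directions, and that of leukocytes overlapped. The summed FPKM of 8 platelet and megakaryocyte genes was 38.3 to 56.3 in the shallow libraries and 1.91 to 3.2 in the deep ones, and 4 of the 5 genes tested were called lower from E40 to E50. Of all genes, 21.8% were called lower in this comparison. The count of 4 ranged from 0 to 4 on leaving out 1 library, with 1 without E40 library 2 and 2 without E50 library 1. With the set as a term none was called, and the median log2 fold change was 0.11 in place of -4.22. GP9 led the list with 29 to 39 FPKM at E40 and 1.08 to 1.75 at E50. The summed FPKM of 11 red blood cell genes was 104 to 411 in the shallow libraries and 685 to 1040 in the deep ones, nearly all from HBB. The list as a whole did not follow HBB. From E40 to E50 the median log2 fold change of the 7 genes tested was -0.04, beside 0.55 for all genes. Of these 7, EPB42 was the 1 called, and it was lower (0 to 2 calls on leaving out 1 library). Of 4 leukocyte genes, AIF1 was called higher and LYZ lower (0 to 2 on leaving out 1 library), and the summed FPKM of 8 was 4.9 to 10 in the shallow and 5.92 to 9.23 in the deep set. PECAM1 and VWF are also made by platelets and megakaryocytes, and the part of blood cells in the endothelial values was not tested.

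The mean standardised log2 profile of the 7 endothelial genes over the 9 libraries was most like that of ARL10 (Pearson r = 0.980), RPP14, ZNF45, FMOD and ARID1A, among 7550 genes with a mean of at least 5 FPKM. Over the 5 shallow libraries the nearest were PRADC1, IRAK1BP1, SPG21, NDNL2 and S100A13, so that no gene was in both lists of 5. Of the 7 genes, KDR was nearest to their own mean over 9 libraries (r = 0.942) and TIE1 had the opposite sign (r = -0.341), while over the 5 shallow libraries VWF was nearest (r = 0.910) and KDR had r = 0.587. These values are a description, since the libraries share their set and depth.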

How the data were processed

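RNA of Dm3 tooth germs of miniature pigs was sequenced with 3 libraries per stage at E40, E50 and E60. The authors extracted total RNA (Trizol by the labels, a QIAGEN kit by the study's methods), prepared rRNA-depleted directional libraries, aligned the paired reads with TopHat (build Sscrofa10.2 by the submitters' processing notes) and deposited one table of FPKM values per gene, with no scaling between libraries stated. Stages were taken from the labels. A gene's FPKM rises in whole steps, each worth 1 read, and reads and the total each library was divided by were recovered from these steps (99.9% of each total). The floor was set at 3 reads.

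After a filter (FPKM of 1 or more in 2 or more libraries), limma 3.58.1 (R 4.3.3, with its mean-variance trend) was fitted to log2(FPKM + 0.1) with 1 coefficient per stage, all 9 libraries and Benjamini-Hochberg adjustment over all genes tested. The pseudocount understates changes of low genes whose values are all above 0. Where a library holds 0, the pseudocount sets the size of the change and can overstate it. TIE1 had a log2 fold change of -2.59 from E40 to E60 over the 8 libraries. Its pooled rate in the shallow E60 libraries was 0.452 times that at E40 (0.0754 to 1.98). A call needed an adjusted p below 0.05 together with a log2 fold change of 1 or more in size. Read recovery and the limma fit from E40 to E50 were tested on simulated data. Recovery was exact for 99.5% of 4458 rows above 0 in 5 libraries. For the fit, 200 of 19210 genes tested had been given a log2 fold of 2. It called 100 of these 200, and it also called 27 genes that had been left unchanged. The simulated libraries had no difference between the sets beyond depth and no shift of the median gene. The changed genes all had a mean of at least 5 FPKM. These numbers therefore give no error rate for the real step from E40 to E50, nor for low genes. Without E60 library 1, E60 has 2 libraries and the spread is shared over stages. Alternatives were other pseudocounts, filters and scalings, limma-voom on recovered reads, a replicate block, the set of libraries as a term, and leaving out each library. Exact permutation tests and exact Poisson or binomial intervals (95%, counting error only) used scipy 1.17.1, with numpy 2.4.6, pandas 2.3.3, matplotlib 3.10.9 and Python 3.11.15.

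The genes, the lists and their tests were chosen with earlier results of these data known. From each list, the genes named were the 3 with the highest mean FPKM and, per comparison, the 2 called over 9 libraries with the largest change. Gene IDs and synonyms came from RefSeq (Sscrofa11.1), whose positions were not used because the build differs, and no sequence was used here.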

Additional observations from a re-analysis of the deposited data

How the results depend on the processing

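Depth limits most of these values: in the shallow libraries TIE1 and EMCN never exceeded 3 reads and TEK, FLT1, ENG, VWF and VEGFA never exceeded 9, 12, 14, 19 and 20, whereas KDR and PECAM1 had 28 or more. Where a value changed with a setting, the cause was not tested unless the setting has fewer libraries. The number of genes called from E40 to E50, 2 of 8, became 4 with only the compared stages in the fit, 0 with the library set as a term, 0 with median-ratio scaling, 1 with no filter, 1 with a pseudocount of 0.01, 1 without E60 library 1 on scaled values, and 0 to 3 when leaving out each library. The share of all genes called moved with the setting too. It was 38.6% in the main fit, 0.255% with the set as a term, 36.5% with scaling and 54.6% without E60 library 1. On scaled values without E60 library 1, 8490 of 19606 genes were called. For the other settings of this comparison the share is not given, and their counts are not read as results about the 8 genes. From E50 to E60 the 0 calls became 0 to 3 on leaving out each library, with 3 without E60 library 1, where 59.1% of all genes were called. From E40 to E60 the 0 calls became 1 with the library set as a term, 1 with scaling, 1 with limma-voom over 9, 8 or 5 libraries, 2 on scaled values without E60 library 1, and 0 to 2 on leaving out each library. Whether the replicate numbers of the labels pair the libraries was not settled. The correlation of deviations was between -0.515 and 0.109 for libraries with the same number and between -0.378 and 0.423 for different numbers. Those with E60 mix deep and shallow libraries. From E40 to E50, same numbers gave 0.083, -0.0039 and 0.109, and different numbers -0.104 to 0.014. With a replicate block 1 gene, PECAM1, was called from E40 to E50, with no calls in the other comparisons. The FLT1 to KDR difference kept its sign under all alternatives.

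Log2 fold changes of the opposite sign, E40 to E50, were -1.29 for VEGFA, -0.73 for KDR, -0.91 for FLT1, -0.17 for TEK and -0.58 for VWF with the set as a term, -0.64 for VEGFA, -0.40 for FLT1 and -0.10 for VWF with scaling, -0.62, -0.38 and -0.085 for the same genes on scaled values without E60 library 1, and -0.38 for VEGFA and -0.19 for FLT1 with limma-voom (-0.37 and -0.20 over 8 libraries). Leaving out single libraries moved VEGFA between -0.12 and 0.16. From E50 to E60 they were 0.15 for KDR, 0.067 for FLT1, 0.51 for TEK, 0.025 for ENG, 0.23 for PECAM1 and 0.40 for VWF with the set as a term, 0.027 for FLT1, 0.23 for TIE1, 0.33 for ENG, 0.19 for PECAM1 and 0.36 for VWF with scaling, 0.41 for TIE1, 0.40 for ENG, 0.084 for PECAM1 and 0.26 for VWF on scaled values without E60 library 1, 0.069 for FLT1, 0.19 for TEK, 0.22 for TIE1, 0.18 for ENG, 0.072 for PECAM1 and 0.53 for VWF with limma-voom, 1.53 for TIE1, 0.25 for ENG and 0.39 for VWF with it over 8 libraries, and 0.15 for TIE1 with a pseudocount of 1. Leaving out single libraries moved TIE1 between -1.69 and 0.95 and VWF between -0.78 and 0.50. From E40 to E60 KDR had -0.58 with the set as a term and in the shallow libraries alone, -0.11 there on scaled values, -0.10 there with limma-voom, -0.094 with limma-voom over 8 libraries and -0.15 on scaled values without E60 library 1, and VWF had -0.18 with the set as a term and in the shallow libraries alone. Leaving out single libraries moved KDR between -0.58 and 0.58, ENG between -0.082 and 0.82 and VWF between -0.27 and 1.01. The fits of the shallow libraries and those of limma-voom over 8 or 5 libraries were chosen after seeing the data.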
